A study of Mus musculus with 81 samples.

Results

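Clones that persisted in the blood of previously cured mice were the T-cell clones other than OT-1 that were found again and again in the same animal over the 4 sampling days. A clone was an in-frame nucleotide rearrangement of the TCRβ gene, and it was counted as persisting when at least 1 template was found on 3 or more of the 4 sampling days of 1 mouse, which were day 65, day 73, the pre-EL4 day and the post-EL4 day. These members were chosen by their own template counts on those days. The rule found 276 persisting clones among the 202458 in-frame clones other than OT-1 in 7 mice, which is 0.136%, while 200539 clones (99.1%) were seen on 1 day and 1643 on 2 days. The 276 entries held 270 distinct rearrangements, because 4 rearrangements persisted in 2 mice each and 1 persisted in 3 mice. Of the 276, 17 were near copies, within 3 edits of a larger rearrangement of the same mouse, and 259 were not. Whether a near copy was a separate clone was not tested. Of the 276, 63 were also found as the same rearrangement in other mice of the study and 45 had no added bases at their joints. Such a rearrangement can be made more than once, and whether each entry was 1 line of cells on all its days was not tested.

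The 7 previously cured mice were CD45.1 Pep Boy animals (B6.SJL-Ptprc<a> Pepc<b>/BoyJ). They had carried tumors of EG7.OVA, a derivative of the T-cell lymphoma EL4 that makes ovalbumin (OVA), and were treated with 1e6 naïve OT-1 cells. They also got engineered red blood cells, 2.5e8 of them, that present an OVA peptide together with 4-1BBL and IL-12 and are called mRBC-OVA-4-1BBL-IL-12. EG7.OVA was given again on day 66 and EL4 on day 127, so day 73 lay 7 days after the first of these challenges, the pre-EL4 sample 1 day before the second and the post-EL4 sample 9 days after it. The 5 naïve control mice of the same strain received 5e5 OT-1 cells on day 65 without engineered red blood cells, were given EG7.OVA on day 66 and were sampled on days 65 and 73. Each cured mouse got both OT-1 and the engineered cells, so what either contributed cannot be told apart in them. In cured and naïve mice templates were sequenced from genomic DNA of whole blood, so CD4+ and CD8+ cells were not separated.

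A T cell carries a β chain assembled from a V, a D and a J segment, and the bases trimmed and added at the joints make its CDR3, the loop that touches the peptide, close to a label of descent. Most rearrangements are made once and differ between animals, while short joints with few added (N) bases are made repeatedly and are found in many mice. Memory T cells divide slowly without antigen and expand when it returns, which is why a clone can be followed by the number of its templates in repeated blood samples. OT-1 cells, whose transgenic receptor has the CDR3 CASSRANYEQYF, were left out of the clones and of the denominator throughout.

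Sequences of the largest persisting clone of each mouse, by mean share over the 4 days, are given first, because these clones hold much of what was counted. Each is the 87-base read of the rearrangement as deposited, 5′ to 3′, and capitals mark the CDR3, whose last 3 bases lie beyond the end of the read.
Mouse 1, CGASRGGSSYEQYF, TCRBV20-01 and TCRBJ02-07: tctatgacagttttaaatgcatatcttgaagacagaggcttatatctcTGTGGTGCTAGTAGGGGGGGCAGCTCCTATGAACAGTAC
Mouse 2, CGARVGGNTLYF, TCRBV20-01 and TCRBJ01-03: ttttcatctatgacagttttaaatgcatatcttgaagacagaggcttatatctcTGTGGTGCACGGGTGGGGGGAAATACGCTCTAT
Mouse 3, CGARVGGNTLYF, TCRBV20-01 and TCRBJ02-04: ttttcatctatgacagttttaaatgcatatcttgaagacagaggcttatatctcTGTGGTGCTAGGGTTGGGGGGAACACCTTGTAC
Mouse 4, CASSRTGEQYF, TCRBV14-01 and TCRBJ02-07: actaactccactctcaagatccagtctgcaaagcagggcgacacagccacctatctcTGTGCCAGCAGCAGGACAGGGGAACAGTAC
Mouse 5, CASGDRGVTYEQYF, TCRBV13-02 and TCRBJ02-07: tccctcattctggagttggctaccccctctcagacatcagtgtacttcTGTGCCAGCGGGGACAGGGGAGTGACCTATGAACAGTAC
Mouse 6, 15 residues, TCRBV14-01 and TCRBJ02-07: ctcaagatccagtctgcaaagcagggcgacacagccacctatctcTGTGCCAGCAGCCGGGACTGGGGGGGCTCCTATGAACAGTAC
Mouse 7, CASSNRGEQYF, TCRBV19-01 and TCRBJ02-07: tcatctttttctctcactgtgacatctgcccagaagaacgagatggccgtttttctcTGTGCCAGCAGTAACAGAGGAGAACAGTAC
The segment names are those of the immunoSEQ assay, and all 35 V segments seen in the cured mice matched a mouse gene symbol in the RefSeq table of assembly GRCm38.p6, where the TCRβ segments lie on chromosome 6. No coordinates are given because the files name no genome build.

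The leading clones of mice 2 and 3 had the same CDR3 amino acids, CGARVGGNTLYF, on the same V segment but on different J segments. The rearrangement of mouse 2 held 5 N bases and that of mouse 3 held 1, so the same loop had been made by separate joinings in these animals. Mouse 4 held a persisting clone that differed from it at 1 residue, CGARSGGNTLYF, on TCRBV20-01 and TCRBJ02-04.
Mouse 4, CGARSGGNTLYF: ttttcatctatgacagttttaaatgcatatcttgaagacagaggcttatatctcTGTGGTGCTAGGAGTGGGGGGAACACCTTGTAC
None of the 7 leading rearrangements was found, as the same nucleotides, in any other cured mouse or in the 20 other mice of the study. The CDR3 amino acids of the leading clone of mouse 6 were found in 5 of the 20 and in 4 other cured mice. Those of mice 4 and 7 were each found in 2 of the 20, and those of mice 1, 2, 3 and 5 in 0.

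The leading clone differed widely between mice in how steady it was. In mouse 6 it had 287 templates on day 65, 158 on day 73, 264 on the pre-EL4 day and 383 on the post-EL4 day, or 2.51%, 1.94%, 2.28% and 2.69% of templates other than OT-1. This was the largest and, with a 1.39-fold range, the steadiest of the 7. In mouse 3 the leading clone had 8, 12, 9 and 15 templates on the same days, a 1.84-fold range in share at a much lower level of 0.109% to 0.201%.

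In the other mice the leading clone peaked on different days. In mouse 5 it had 27, 283, 105 and 174 templates, which was 0.322% on day 65, 5.65% on day 73, 0.879% on the pre-EL4 day and 0.787% on the post-EL4 day. In mouse 4 it had 77, 215, 133 and 209 templates, with shares of 0.784%, 3.37%, 1.23% and 1.29%. In mouse 2 it had 4, 56, 29 and 47 templates, with shares of 0.0472%, 1.31%, 0.457% and 0.379%. These 3 clones were highest on day 73. In mouse 7 the leading clone had 11, 23, 274 and 160 templates and was highest on the pre-EL4 day, at 2.50%, after 0.0917% on day 65. In mouse 1 it had 18, 6, 15 and 130 templates and was highest on the post-EL4 day, at 1.39%, after 0.191% on the pre-EL4 day.

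**Figure D1:**
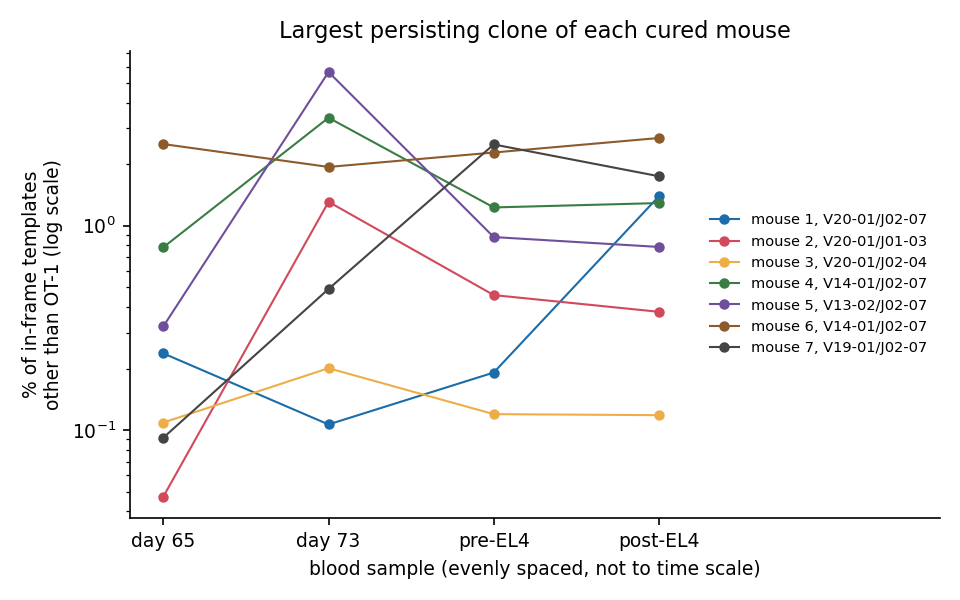
Share of the largest persisting clone of each of the 7 cured mice on the 4 sampling days, in percent of in-frame templates other than OT-1 on a log scale, with each line a mouse named with its V and J segments. The clone of mouse 6 stays between 1.94% and 2.69%, while that of mouse 5 reaches 5.65% on day 73 and that of mouse 7 reaches 2.50% on the pre-EL4 day.

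The number of persisting clones was 42 in mouse 1, 22 in mouse 2, 19 in mouse 3, 50 in mouse 4, 48 in mouse 5, 39 in mouse 6 and 56 in mouse 7. They were found on all 4 days in 104 cases and on 3 days in 172. Most were small: the median was 7 templates over the 4 days together, 184 clones had 10 or fewer, 28 had 50 or more and 15 had 100 or more, up to 1092. At the edge of the rule, clones present on exactly 3 days had a median of 5 templates and clones present on 2 days, just outside it, had a median of 2 and a maximum of 46. The largest clone held between 16.7% of the templates of persisting clones in mouse 3 and 57.4% in mouse 6.

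The summed share of the persisting clones was 1.97% ± 1.21 (SD, n = 7) of templates other than OT-1 on day 65, 5.00% ± 2.59 on day 73, 2.53% ± 1.46 on the pre-EL4 day and 2.74% ± 1.51 on the post-EL4 day. On day 73 it ranged from 1.04% in mouse 3 (62 of 5979 templates, 95% Wilson interval 0.810% to 1.33%) to 8.40% in mouse 5 (421 of 5010, interval 7.67% to 9.20%). It was higher on day 73 than on day 65 in all 7 mice. Of the 276 clones, 145 had their highest share on day 73, 56 on day 65, 39 on the pre-EL4 day and 36 on the post-EL4 day. Equal counts give the highest share in the smallest library, which was the day 73 library in every mouse, and 102 of the 145 had 10 or fewer templates. Among the 92 members with over 10 templates, 43 were highest on day 73, 22 on day 65, 11 on the pre-EL4 day and 16 on the post-EL4 day. These values used the same counts that chose the clones, so they are a description, and 60 members were absent from the smaller day 73 libraries (4281 to 8154 templates other than OT-1, against 7350 to 11991 on day 65). In cured mice, clones seen on 1 day held 96.4% ± 1.43 of templates other than OT-1 on day 65 and 93.1% ± 2.96 on day 73.

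**Figure D2:**
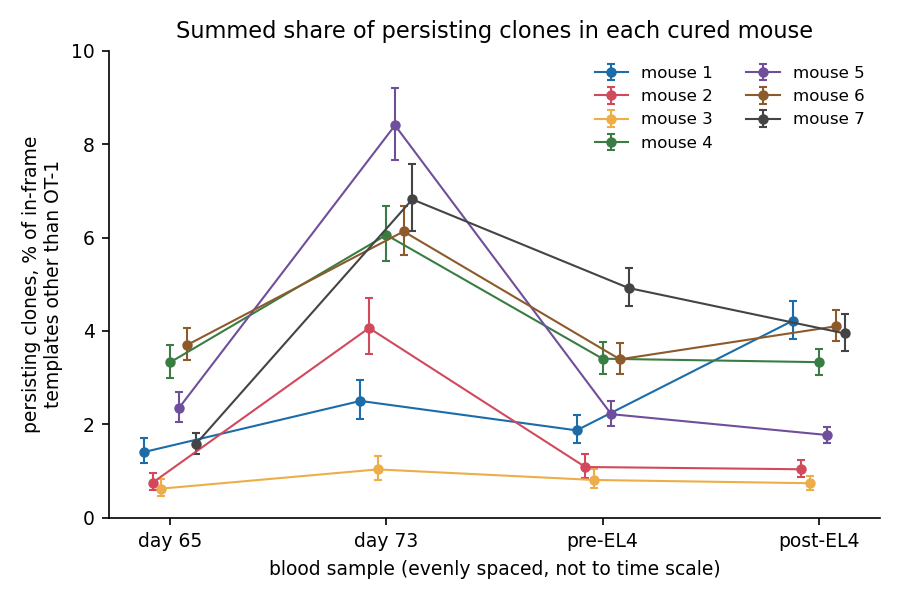
Summed share of the persisting clones in each of the 7 cured mice on the 4 sampling days, in percent of in-frame templates other than OT-1, with 95% Wilson intervals that cover counting error only. All 7 lines rise from day 65 to day 73, where mouse 5 reaches 8.40%, and mouse 3 stays between 0.626% and 1.04%.

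The sizes of single clones on 2 days are given as a description, since the same counts chose the members, most had few templates and library depths differed. Of the 219 persisting clones present on both the pre-EL4 and the post-EL4 day, 150 (68.5%) had shares within 2-fold of each other. From day 65 to day 73 this held for 78 of 161 (48.4%), and from day 73 to the pre-EL4 day for 81 of 189 (42.9%). Between day 65 and the pre-EL4 day, 194 clones were present on both days, 116 of them (59.8%) within 2-fold, and their median log2 ratio was -0.02. Spearman's correlation of shares was 0.635 for days 65 and 73, 0.621 for day 73 and the pre-EL4 day and 0.693 for the pre-EL4 and post-EL4 days, across clones that share 7 mice and their libraries, so it is given without a test.

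The change around each challenge was also measured in clones chosen on the other pair of days, so that the templates compared were not those that chose them. For the first challenge these clones were chosen on days after it, which favours clones that expanded at the challenge and remained, so the choice is not independent of the change. The test below cannot tell a change from the effect of this choice. In each mouse, 54 to 192 clones were present on both the pre-EL4 and the post-EL4 day, 807 in all, of which 164 were seen on day 65 and 159 on day 73. The 219 seen on either of these days were all persisting clones by the rule. Their summed share was 1.75% ± 1.21 (SD, n = 7) on day 65, with a lowest value of 0.402%, a median of 1.47% and a highest of 3.49%. On day 73 it was 4.72% ± 2.54, with a lowest value of 0.987%, a median of 5.76% and a highest of 8.24%. The share was higher on day 73 in 7 of 7 mice, by 2.96 percentage points ± 1.97 (2-sided exact sign-flip test, p = 0.0156, the smallest that 7 mice allow, and 0.0312 after Benjamini-Hochberg adjustment over the 2 changes tested), although the ranges of the 2 days overlapped.

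A single clone carried most of this rise in 2 mice. The clone that rose most accounted for 96.5% of the change in mouse 4 and 88.7% in mouse 5, and for 18.6% to 45.9% in the other mice. With that clone taken out of each mouse the change was 1.30 percentage points ± 1.34, from 0.0943 in mouse 4 to 3.92 in mouse 7. As a share of all in-frame templates, OT-1 included, the mean rise came to 1.83 percentage points (2-sided exact sign-flip test, p = 0.0156). OT-1 templates were 0 of 4281 in mouse 2 and 45.0% of in-frame templates in mouse 7 on day 73, and both mice showed the rise. Whether the rise varied with the share of OT-1 over the 7 mice was not tested.

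Clones present on both day 65 and day 73, 22 to 64 in a mouse, had a summed share of 2.15% ± 1.42 (SD, n = 7) on the pre-EL4 day and 2.37% ± 1.43 on the post-EL4 day. The mean difference came to 0.223 percentage points ± 1.10, with 3 mice higher and 4 lower (exact sign-flip test, p = 0.859, adjusted p = 0.859). These clones were chosen on days before the EL4 challenge, which leaves out clones first seen after it. The choice thus differed from that for the first challenge, so the changes at the 2 challenges cannot be set against each other. Mouse 1 stood apart, going from 1.33% (104 templates) to 3.91% (365 templates). Without mouse 1 the mean difference came to -0.170 percentage points (2-sided exact sign-flip test, p = 0.312). In the other 6 mice the differences lay between -0.811 and 0.247 percentage points.

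**Figure D3:**
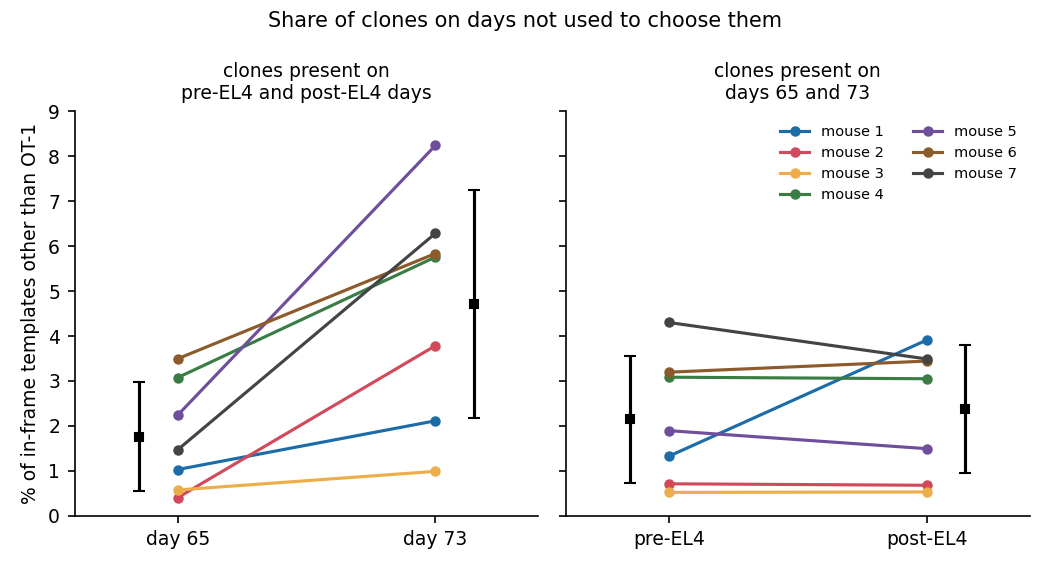
Summed share of clones on days that had no part in choosing them, in percent of in-frame templates other than OT-1, with each coloured line 1 of 7 cured mice and black squares the mean with SD. Clones present on the pre-EL4 and post-EL4 days (left) rise from day 65 to day 73 in every mouse, and clones present on days 65 and 73 (right) change by -0.811 to 0.247 percentage points from the pre-EL4 to the post-EL4 day in 6 mice and in mouse 1 go from 1.33% to 3.91%.

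Consecutive samples of a mouse were set against each other clone by clone in Fisher's exact test (2-sided), wherever both libraries held 5 or more templates of the clone between them, with Benjamini-Hochberg adjustment within each mouse and pair of days. From day 65 to day 73, 26 of 93 persisting clones tested (27.96%) were higher at an adjusted p under 0.05, beside 26.4% of all 193 clones tested. Lower on day 73 was 1 persisting clone (1.08%, beside 1.04% of all clones tested). With OT-1 templates kept in the denominator, 18 persisting clones were higher and 5 lower, with no share over all clones tested given beside them. From day 73 to the pre-EL4 day, 4 of 105 persisting clones were higher (3.81%, beside 4.88%) and 23 were lower (21.9%, beside 19.1%). From the pre-EL4 to the post-EL4 day, 8 of 107 were higher (7.48%, beside 8.36%) and 4 were lower (3.74%, beside 14.9%). The 3 comparisons share libraries and the rule used the same counts, so the shares of persisting clones are a description. The other 183, 171 and 169 persisting clones had under 5 templates in the respective pair, and 233 of the 276 were called in no pair.

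The calls were spread over the mice from day 65 to day 73, with 9 persisting clones higher in mouse 7, 6 in mouse 6, 3 each in mice 2, 4 and 5, and 1 each in mice 1 and 3. Among persisting clones, 18 were higher on day 73 than on day 65 and lower again on the pre-EL4 day. No share over all clones tested is given beside this count or the counts by mouse, so they are a description. The lowest adjusted p for a rise belonged to the leading clone of mouse 5 (Fisher's exact test, adjusted p = 4.36e-89), which also had the lowest for a fall to the pre-EL4 day (Fisher's exact test, adjusted p = 1.15e-69). The persisting clone that was lower on day 73 among templates other than OT-1 was the leading clone of mouse 6 (Fisher's exact test, adjusted p = 0.0390).

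After day 73 the clearest rise was the leading clone of mouse 7, from 23 templates to 274 on the pre-EL4 day (Fisher's exact test, adjusted p = 2.95e-19). Between the pre-EL4 and the post-EL4 day it was the leading clone of mouse 1, from 15 to 130 templates (Fisher's exact test, adjusted p = 2.05e-18). Of the 8 persisting clones higher on the post-EL4 day 4 were in mouse 1, with no share over all clones tested in that mouse given beside them. The clearest fall in that interval was a clone of mouse 5 with TCRBV16-01, TCRBJ02-07 and the CDR3 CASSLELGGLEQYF, which went from 20 templates to 4 (Fisher's exact test, adjusted p = 0.000124).

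A persisting clone shared the first 7 residues of the OT-1 CDR3, and it is named after its values were seen. It carried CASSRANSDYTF on TCRBV12-01 and TCRBJ01-02, and lay in mouse 2, where OT-1 templates were 0 on days 65 and 73 and the pre-EL4 day and 3 on the post-EL4 day.
Mouse 2, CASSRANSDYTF: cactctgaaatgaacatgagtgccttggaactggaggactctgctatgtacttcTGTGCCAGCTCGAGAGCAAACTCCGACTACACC
It had 0 templates on day 65, 34 on day 73, 9 on the pre-EL4 day and 7 on the post-EL4 day. The rise to day 73 passed the test (Fisher's exact test, adjusted p = 3.77e-16), as did the fall to the pre-EL4 day (Fisher's exact test, adjusted p = 2.01e-06). In the other 6 cured mice, clones of TCRBV12-01 with these 7 residues, OT-1 left out, had at most 2 templates over all days. The CDR3 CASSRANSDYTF was also found, from other rearrangements, in 6 of the 20 other mice of the study. No persisting clone differed from the main OT-1 rearrangement at fewer than 10 bases.

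The 5 rearrangements that persisted in more than 1 mouse had 0 to 3 N bases. The shortest, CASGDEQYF, joined TCRBV13-02 to TCRBJ02-07 with 0 N bases and persisted in 3 mice.
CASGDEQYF, mice 2, 5 and 7: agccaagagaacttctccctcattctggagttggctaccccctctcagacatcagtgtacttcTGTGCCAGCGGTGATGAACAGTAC
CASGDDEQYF, mice 1 and 4: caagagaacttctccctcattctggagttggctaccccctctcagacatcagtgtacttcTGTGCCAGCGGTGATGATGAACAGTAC
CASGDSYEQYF, mice 1 and 7: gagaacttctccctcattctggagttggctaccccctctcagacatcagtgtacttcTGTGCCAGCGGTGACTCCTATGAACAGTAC
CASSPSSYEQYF, mice 3 and 5: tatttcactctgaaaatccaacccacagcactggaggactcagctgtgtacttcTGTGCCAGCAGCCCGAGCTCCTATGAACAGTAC
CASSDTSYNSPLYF, mice 1 and 6: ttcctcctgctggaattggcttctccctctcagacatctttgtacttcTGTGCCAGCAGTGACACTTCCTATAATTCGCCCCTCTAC
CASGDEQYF had 2, 0, 1 and 3 templates on the 4 days in mouse 2, 1, 0, 2 and 7 in mouse 5, and 0, 3, 4 and 6 in mouse 7. The same rearrangement was found in 10 of the 20 other mice. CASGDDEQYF and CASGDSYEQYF, on the same segments with 0 N bases, were found in 5 and 4 of the 20 other mice.

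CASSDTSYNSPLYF, on TCRBV13-01 and TCRBJ01-06 with 1 N base, was the exception in size and in rarity. In mouse 6 it was the second largest persisting clone, with 23, 104, 39 and 29 templates on the 4 days, and in mouse 1 it had 3, 7, 5 and 3. It was highest on day 73 in both mice, at 1.28% of templates other than OT-1 in mouse 6, and was found in 1 of the 20 other mice. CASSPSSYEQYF, on TCRBV03-01 and TCRBJ02-07, had 2 to 4 templates on each day it was found in mice 3 and 5 and was found in 11 of the 20.

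As CDR3 amino acids, 8 of the 258 distinct sequences persisted in 2 or more mice. A further 20 pairs of persisting clones from different mice had CDR3s of equal length that differed at 1 residue. Some sequences lay in several of these pairs, and no count for equally many clones seen on 1 day is given beside them. Of the 44 persisting clones with TCRBV13-02, 13 had TCRBJ02-07 and 0 N bases, with 9 to 13 residues. They lay in 6 of the 7 mice, all except mouse 3, and had between 6 and 29 templates over the 4 days, and all 13 were found as the same rearrangement in other mice. Shares for clones of this kind seen on 1 day are not given, so these counts are a description.

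Sequence features, 6 in all, were compared with clones seen on 1 day of the same mouse, each clone counted once. None passed Benjamini-Hochberg adjustment over the 6 features of the exact sign-flip test (lowest adjusted p = 0.0938). With 7 mice the smallest p is 0.0156, so a single feature could not pass adjustment over the 6 whatever its difference. The share of clones whose CDR3 was listed with more than 1 nucleotide rearrangement in the mouse was 46.2% ± 7.13 of persisting clones (SD, n = 7) and 20.1% ± 1.38 of clones seen on 1 day, higher in 7 of 7 mice (exact sign-flip test, p = 0.0156, adjusted p = 0.0938). This difference was smaller when rearrangements with nearly the same junction were not counted. Of the 35 other rearrangements listed with the CDR3 of the 7 leading clones, 33 had the same CDR3 bases within the read and differed only in the bases before them, and none had more than 10 templates. Counting only rearrangements that differed at more than 2 bases, the shares were 34.6% ± 7.86 and 14.1% ± 1.29, higher in 7 of 7 mice (exact sign-flip test, p = 0.0156). Counting only junctions that differed at more than 2 CDR3 bases, the shares were 9.61% ± 5.89 and 7.22% ± 0.938, higher in 5 of 7 mice (exact sign-flip test, p = 0.281).

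Persisting rearrangements were found in the 20 other mice of the study in 20.4% ± 12.3 of cases (SD, n = 7), against 5.18% ± 0.113 for clones seen on 1 day. The share was 4.55% in mouse 2, 5.26% in mouse 3, 14.3% in mouse 7, 25.6% in mouse 6, 28% in mouse 4, 29.2% in mouse 5 and 35.7% in mouse 1. It was higher in 6 of 7 mice, mouse 2 being the exception, by 15.2 percentage points ± 12.3 (exact sign-flip test, p = 0.0469, adjusted p = 0.0938). For CDR3 amino acids the shares were 46.5% ± 10.6 and 35.8% ± 0.363, higher in 5 of 7 mice (exact sign-flip test, p = 0.0625, adjusted p = 0.0938).

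Sharing was also counted by the size of the members, as a description. Of the 184 persisting clones with 10 or fewer templates, 50 (27.2%) were found as the same rearrangement in other mice and 38 (20.7%) had 0 N bases. Of the 28 with 50 or more templates, 3 (10.7%) were found in other mice and 1 (3.57%) had 0 N bases. Over the members present on all 4 days, the share found in other mice was 11.3% ± 10.6 (SD, n = 7), 6.10 percentage points above clones seen on 1 day (exact sign-flip test, p = 0.156).

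CDR3 length was 13.7 residues ± 0.173 (SD, n = 7) in persisting clones and 13.9 ± 0.0104 in clones seen on 1 day, shorter in 5 of 7 mice (exact sign-flip test, p = 0.0625, adjusted p = 0.0938). It was longer, by 0.0892 residues, once TCRBJ02-07 clones were left out (exact sign-flip test, p = 0.203). N bases numbered 3.06 ± 0.574 and 3.47 ± 0.0136, lower in 5 of 7 mice (exact sign-flip test, p = 0.125, adjusted p = 0.150). J segments of the J2 cluster made up 65.6% ± 7.61 and 62.9% ± 0.407 (exact sign-flip test, p = 0.359, adjusted p = 0.359).

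**Figure D4:**
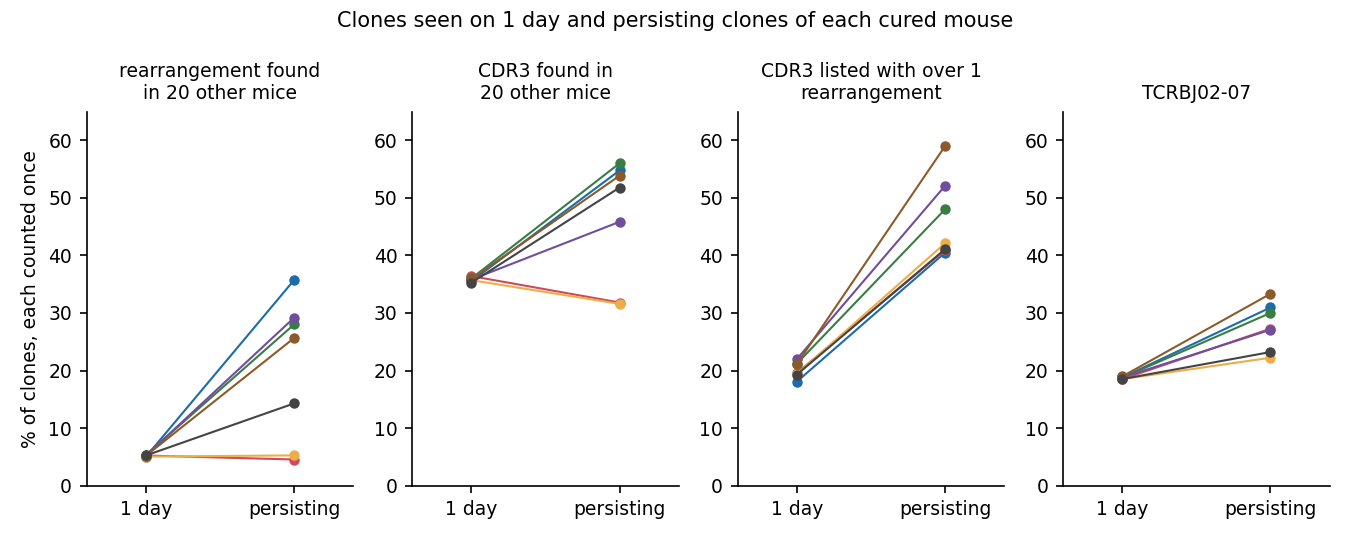
Percent of clones, each counted once, with 4 sequence features in clones seen on 1 day and in persisting clones, with each line 1 of the 7 cured mice. The share of CDR3s listed with over 1 rearrangement, near copies included, and the share of TCRBJ02-07 are higher in persisting clones of every mouse, while sharing of the rearrangement with the 20 other mice ranges from 4.55% in mouse 2 to 35.7% in mouse 1.

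The V segments most used by persisting clones were TCRBV13-02 (44 clones, 16.6% ± 5.68 against 11.1% ± 0.206 of clones seen on 1 day), TCRBV05-01 (25 clones, 9.13% ± 3.08 against 6.24% ± 0.161), TCRBV19-01 (21 clones, 7.57% ± 6.08 against 7.60% ± 0.227), TCRBV13-03 (20 clones, 7.76% ± 5.06 against 6.23% ± 0.152), and TCRBV02-01, TCRBV03-01 and TCRBV20-01 with 16 clones each. None of 20 V segments passed adjustment (lowest exact sign-flip p = 0.0469, adjusted p = 0.391), and 1 had an unadjusted p under 0.05. TCRBV20-01, which carries the leading clones of mice 1, 2 and 3, made up 6.21% ± 3.75 against 3.33% ± 0.0925 (exact sign-flip test, p = 0.0781).

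Among J segments, TCRBJ02-07 made up 27.7% ± 4.05 of persisting clones (SD, n = 7) and 18.7% ± 0.185 of clones seen on 1 day. It was higher in 7 of 7 mice, by 9.03 percentage points ± 3.89 (exact sign-flip test, p = 0.0156, adjusted p = 0.0938 over 12 J segments). Of the 17 near copies 11 carried it, and without near copies the difference was 6.95 percentage points ± 4.38, higher in 7 of 7 mice (exact sign-flip test, p = 0.0156). TCRBJ02-02 was lower in 7 of 7 mice, at 3.19% ± 2.08 against 5.83% ± 0.165 (exact sign-flip test, p = 0.0156, adjusted p = 0.0938). The other J segments most used were TCRBJ02-05 with 32 clones, TCRBJ01-01 with 29, TCRBJ02-01 with 26 and TCRBJ01-04 with 22. None of the 12 passed adjustment, and 2 had an unadjusted p under 0.05. Both had the smallest p that 7 mice allow, with which 2 of 12 segments cannot pass.

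The number of templates per clone itself depended on the J segment. Clones with TCRBJ02-07 seen on 1 day had 1.94 templates ± 0.0220 on average (SD, n = 7), and the other 11 J segments had between 1.01 and 1.51. TCRBJ02-07 made up 7.29% ± 0.239 of clones with 1 template, 53.8% ± 1.92 of those with 2 and 81.5% ± 1.72 of those with 3. Of all clones seen on 1 day, 78.4% had 1 template, 16.5% had 2, 4.66% had 3 and 0.0997% had 5 or more. Whether a count of 2 or 3 stood for 1 cell was not tested. Persisting clones with TCRBJ02-07 held between 20.9% (mouse 3) and 72.6% (mouse 4) of the templates of persisting clones.

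The changes at the challenges, the sequence features, the finding on a further day and the comparison with naïve mice were therefore repeated without TCRBJ02-07 clones. In this repeat the share of clones present on the pre-EL4 and post-EL4 days was 1.11% ± 0.542 (SD, n = 7) on day 65 and 2.99% ± 1.79 on day 73, higher in 7 of 7 mice (exact sign-flip test, p = 0.0156). No such repeat is given for the summed shares, days of highest share, fold ranges or Fisher's tests of single clones. The clones named for the lowest adjusted p in each direction all carried TCRBJ02-07. Set against clones with at least 3 templates on their day, of which 80.7% ± 1.80 carried TCRBJ02-07, the persisting clones had less of this segment in all 7 mice.

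**Figure D5:**
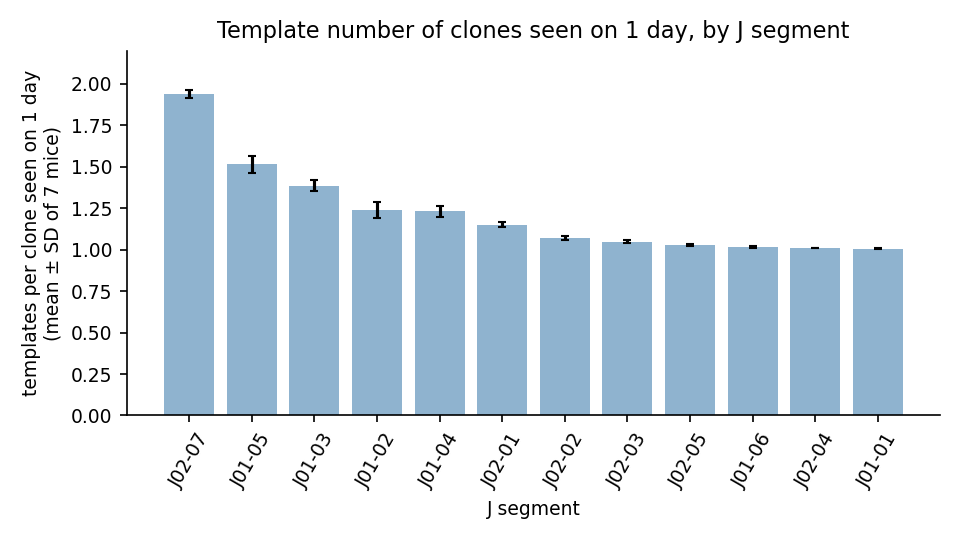
Mean number of templates per clone seen on 1 day, by J segment, with bars the mean and error bars the SD of 7 cured mice. TCRBJ02-07 stands at 1.94 templates per clone and the other 11 segments between 1.01 and 1.51.

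Clones with the same number of templates were compared by how often they were found on a further day. Those with 1 template on each of 3 days were already persisting clones by the rule, which used the same 4 days. The comparison is therefore a description. Leaving out each day in turn, clones with 1 template on each of the other 3 days were found on the day left out in 32 of 78 cases, and clones with 3 templates on 1 of those days in 219 of 28281. Per mouse this was 35.2% ± 18.0 (SD, n = 7) against 0.760% ± 0.141, higher in 6 of 7 mice (exact sign-flip test, p = 0.0312). Mouse 3, the exception, had 2 such cases and found 0. These cases count a clone once for each day left out, so the 6 clones with 1 template on all 4 days gave 24 of the 32 finds and a clone never found again was counted 3 times among those with 3 templates. With each clone counted once, 14 of 60 and 203 of 9557 were found, or 21.3% ± 12.9 and 2.09% ± 0.345 per mouse, higher in 6 of 7 mice (exact sign-flip test, p = 0.0312). Most of the clones with 3 templates on 1 day carried TCRBJ02-07, and whether such a count stood for 3 cells was not tested. Without that segment the counts over all cases, with clones again counted for each day left out, were 30 of 71 and 71 of 5354 (exact sign-flip test, p = 0.0312). They stand beside the 32 of 78 and 219 of 28281 above.

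Out-of-frame rearrangements, which encode no receptor and are carried by T cells beside a working β chain, persisted as well. On 3 or more days, 162 of 105737 were present, or 0.152% ± 0.0346 per mouse (SD, n = 7), against 0.137% ± 0.0476 of in-frame clones (exact sign-flip test, p = 0.266, with 2 of 7 mice higher in frame). In mouse 5 the largest out-of-frame rearrangement, of TCRBV13-03 and TCRBJ02-07, had 36, 358, 144 and 182 templates beside the 27, 283, 105 and 174 of the leading in-frame clone. In mouse 4 the largest had 84, 123, 84 and 129 templates beside 77, 215, 133 and 209. Of the out-of-frame entries 60, and of the in-frame entries 17, lay within 3 edits of a larger rearrangement of the mouse. With these left out the shares were 0.0960% ± 0.0167 out of frame and 0.128% ± 0.0411 in frame, higher in frame in 6 of 7 mice (exact sign-flip test, p = 0.0469), so the direction turned with this choice.

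Naïve mice, sampled only on days 65 and 73, were compared with cured mice over that week. Of the day 65 templates other than OT-1, the share in clones that 4195 templates of day 73 would hold was 2.07% ± 1.19 (SD, n = 7) in cured mice and 0.529% ± 0.0931 (SD, n = 5) in naïve mice. The cured mice ranged from 0.740% in mouse 3 to 4.05% in mouse 6 and the naïve mice from 0.415% to 0.628%, with no overlap. The difference of 1.54 percentage points passed a 2-sided exact permutation test of 7 mice against 5 (p = 0.0139). Without TCRBJ02-07 clones it was 0.887 percentage points (exact permutation test, p = 0.00253). Day 65 libraries held 3184 to 6192 templates other than OT-1 in naïve mice and 7350 to 11991 in cured mice, and naïve mice had received OT-1 cells on the day of the first sample. The part of either in the difference was not tested.

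The day 73 library of mouse 2 names mouse 1 in its title, but the animal code in that title is the one of mouse 2, and the code was followed. All 3 clones with at least 10 templates in it were found on other days of mouse 2, and none of them in any other cured mouse. Productive (in-frame) templates per library ranged from 4281 to 22737 over the 28 libraries of cured mice, and Wilson intervals cover counting error only. Pairs of libraries from the same mouse shared 21 to 192 in-frame clones, and pairs from different cured mice shared up to 100. A count of 0 allows up to 3 templates, which was 0.0136% to 0.0701% of templates other than OT-1.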

How the data were processed

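The TCRβ CDR3 region was amplified from genomic DNA by the authors in a bias-controlled multiplex PCR (immunoSEQ), sequenced, collapsed and filtered, and they deposited a count of templates for each nucleotide rearrangement, without normalization, together with segment names, CDR3 length and insertions (other columns per the file headers). The aligner, segment reference and genome build are not given in the sources used here. From these counts, clones were followed by nucleotide rearrangement in the 28 libraries of 7 cured mice, whose pre-EL4 and post-EL4 samples were taken on days 126 and 136. Shares are percent of in-frame templates other than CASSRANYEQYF. The members and lists were chosen with earlier results of these data known.

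Changes and features within mice were compared with 2-sided exact sign-flip tests over 7 mice, cured with naïve mice by an exact permutation test, and single clones by Fisher's exact test (at least 5 templates in both libraries together, Benjamini-Hochberg within mouse and pair of days, 0.05). The Fisher procedure and the sign-flip test were tested on simulated data, and the permutation test on fixed values with a known answer. Templates without molecular identifiers are not independent molecules, so Fisher p-values measure the 2 libraries compared, and there was 1 library for each mouse and day. Clones named are the largest persisting clone of each mouse, rearrangements persisting in 2 or more mice, the persisting clone with the lowest adjusted p in each direction for each pair of days, and the 5 most used V and J segments. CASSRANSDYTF and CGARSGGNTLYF were named after their values were seen. Samples of a mouse were paired by the mouse number of the labels. Alternatives covered the number of days or templates required, subsampled libraries, weighting by templates, the comparison clones, the mice searched for sharing, the denominator, a log2 scale with a pseudocount of 0.01%, the replicate block and leaving out each mouse. Leaving out TCRBJ02-07 clones or near-identical rearrangements, counting CDR3 junctions or each clone once, and the comparison of TCRBJ02-07 with clones of at least 3 templates were added after seeing the data. Software was python 3.11.15 with edlib 1.3.9.post1, pandas 2.3.3, scipy 1.17.1, matplotlib 3.10.9 and numpy 2.4.6.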

Additional observations from a re-analysis of the deposited data

Results flagged for a closer look

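Among clones present on both day 65 and day 73, the change in summed share from the pre-EL4 to the post-EL4 day was 2.59 percentage points in mouse 1, far from the other 6 cured mice, of which the nearest was at 0.247. In this mouse 20 such clones were found on the pre-EL4 day and 22 on the post-EL4 day, and the leading clone gave 1.20 of the 2.59 percentage points. Of 17 groups examined for a sample apart from the rest this was the only case, and chance gives 0.85.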

How the results depend on the processing

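The number of persisting clones was 104 when all 4 days were required, 118 with at least 2 templates on each day, 163 in libraries subsampled to equal depth and 1641 when clones were defined by CDR3 amino acids. The difference in CDR3 length turned to 0.114 residues with all 4 days (exact sign-flip p = 0.219), 0.527 against clones with at least 3 templates on 1 day (p = 0.0156, exact) and 0.0892 without TCRBJ02-07. The J2 difference turned to -20.7 percentage points against clones with at least 3 templates (exact p = 0.0156) and -1.72 without TCRBJ02-07, and that of TCRBJ02-07 itself to -53.0. The excess of rearrangements found in other mice was 6.10 percentage points with all 4 days, 13.6 against clones with at least 3 templates, 5.20 weighted by templates and 11.6 without TCRBJ02-07 (exact p = 0.156, 0.0625, 0.172 and 0.109), and 12.6 to 17.8 leaving out each mouse, past 0.05 only without mouse 2. For CDR3s it was 9.86 against the 5 naïve mice and 10.98 against the other 6 cured mice (exact p = 0.0469 for both). The excess of CDR3s listed with more than 1 rearrangement was 20.4 percentage points when only rearrangements differing at more than 2 bases counted (exact p = 0.0156). It fell to 2.39 when only junctions differing at more than 2 bases counted (exact p = 0.281) and 2.27 when near copies were also left out (exact p = 0.359). The in-frame minus out-of-frame difference was -0.0211 percentage points with all 4 days (exact p = 0.0156) and turned to 0.0323 without near-identical rearrangements. Persisting clones lower from day 65 to day 73 numbered 5 with OT-1 in the denominator, with no share over all clones tested given beside them. The cause of these changes was not tested.

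With each clone counted once the difference in recapture was 19.2 percentage points (exact p = 0.0312). Leaving out each mouse moved the difference over all cases between 30.9 and 40.3 percentage points, with exact p = 0.0312 without mouse 3 and 0.0625 without any other mouse. It moved the change from the pre-EL4 to the post-EL4 day between -0.170 and 0.396, the first of these without mouse 1. The change from day 65 to day 73 stayed between 2.45 and 3.39 (exact p = 0.0312 in each case, the smallest that 6 mice allow). Without the replicate block, which pairs sets of clones or days of 1 mouse, the CDR3 length difference of -0.159 had an exact permutation p of 0.0198 and the 10.7 percentage points of CDR3 sharing one of 0.0210. A number shared by a cured and a naïve mouse marks different animals, and pairing by it as a replicate block gave an overlap difference of 1.21 percentage points (exact p = 0.0625, the smallest that 5 pairs allow). Their deviations had a mean correlation of -0.117. With 1 library for each mouse and day, clones of few templates can be missed on a day, and 233 persisting clones were called in no pair of days.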
